A study of Mus musculus with 21 samples.

Results

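Expression of 9 genes of the CC chemokine system was followed in the mouse left ventricle: the ligands Ccl2, Ccl3, Ccl4, Ccl6, Ccl7, Ccl8, Ccl9 and Ccl12, and the receptor Ccr2. They were taken by name from the 19937 genes that had a probe set annotated to 1 gene alone, and each of the 9 had 1 such probe set. The study used 21 arrays of left ventricle RNA from mice aged 9 to 13 weeks, killed 4 days after the last injection. MerCreMer mice carry Tg(αMHC-MerCreMer), a transgene in which the cardiomyocyte promoter of α-myosin heavy chain drives a Cre recombinase that tamoxifen switches on. The groups were MerCreMer mice given tamoxifen for 4 days (3 arrays), MerCreMer mice given control injections for 4 days (3 arrays), MerCreMer mice given tamoxifen for 1 day (3 arrays), MerCreMer mice given 1 control injection (3 arrays), wild-type mice given tamoxifen for 4 days (3 arrays) and wild-type mice given control injections for 4 days (6 arrays).

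Tamoxifen was given at 40 mg/kg per day, into the abdomen, and what the control injections held is not given in the sources used here. No floxed target allele is named for any group, so the Cre transgene is the only allele that sets MerCreMer mice apart in the labels. Groups of 3 were made up of 1 male and 2 females, and 3 males and 3 females made up the wild-type controls. The labels number the replicates without stating that each came from its own animal, so p-values measure the spread between these samples, which may be technical. Cardiomyocyte genes were bright on every array, as the label of left ventricle myocardium requires: the mean log2 level of 16 such markers lay between 11.23 and 11.96. The MerCreMer 4 tamoxifen arrays stood apart from the others. They correlated with each other at 0.918 to 0.974 over the tested genes, against at least 0.982 in every other group, and their median variance was 0.047, against 0.00625 to 0.0108.

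Chemokines are small secreted proteins that guide leukocytes along a gradient by binding receptors coupled to G proteins. In the CC family the first cysteines of the protein stand side by side. Ccl2, Ccl7 and mouse Ccl12 are the monocyte chemoattractant proteins, whose main receptor, Ccr2, marks the inflammatory monocytes that leave the bone marrow for injured tissue. Ccl8 is their close relative, although the mouse protein acts largely through Ccr8. Ccl3 and Ccl4 are the macrophage inflammatory proteins 1α and 1β, and Ccl6 and Ccl9 are rodent ligands of Ccr1 that macrophages and other myeloid cells make. In the injured heart, resident macrophages, fibroblasts, endothelial cells and cardiomyocytes can all make Ccl2, and Ccr2-bearing monocytes are the main source of newly arrived macrophages.

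The 8 ligand genes lie on chromosome 11, and windows of 250 bases before to 50 bases after the transcription start, from RefSeq on build GRCm38.p6, were found for 6 of the 9 genes. Ccl2, Ccl7 and Ccl4 were the 3 without one. Neighbouring pairs are shown because 1 neighbour of the first pair rose after 4 days of tamoxifen and the other stayed near background, whereas both genes of the second pair rose. The windows are Ccl12 at chr11:82101595-82101894 (plus strand), Ccl8 at chr11:82114935-82115234 (plus strand), Ccl6 at chr11:83593038-83593337 (minus strand) and Ccl9 at chr11:83578587-83578886 (minus strand), each read 5′ to 3′ along the gene. Capitals mark the motifs searched for.
Ccl12: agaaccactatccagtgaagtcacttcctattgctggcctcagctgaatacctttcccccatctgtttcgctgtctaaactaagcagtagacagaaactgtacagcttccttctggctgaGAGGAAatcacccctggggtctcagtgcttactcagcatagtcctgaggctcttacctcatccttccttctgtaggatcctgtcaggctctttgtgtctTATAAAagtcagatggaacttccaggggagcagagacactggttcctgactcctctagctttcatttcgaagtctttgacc
Ccl8: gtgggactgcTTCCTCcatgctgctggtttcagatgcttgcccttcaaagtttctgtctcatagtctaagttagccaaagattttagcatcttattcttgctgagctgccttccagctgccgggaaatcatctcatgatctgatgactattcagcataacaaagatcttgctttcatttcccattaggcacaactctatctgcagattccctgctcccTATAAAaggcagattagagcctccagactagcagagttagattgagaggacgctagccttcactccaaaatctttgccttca
Ccl6: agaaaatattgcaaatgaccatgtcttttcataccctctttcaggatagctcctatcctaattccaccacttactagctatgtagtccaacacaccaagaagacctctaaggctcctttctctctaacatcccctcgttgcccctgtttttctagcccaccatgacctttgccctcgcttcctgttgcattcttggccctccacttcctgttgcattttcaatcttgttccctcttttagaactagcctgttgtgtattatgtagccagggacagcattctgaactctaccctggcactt
Ccl9: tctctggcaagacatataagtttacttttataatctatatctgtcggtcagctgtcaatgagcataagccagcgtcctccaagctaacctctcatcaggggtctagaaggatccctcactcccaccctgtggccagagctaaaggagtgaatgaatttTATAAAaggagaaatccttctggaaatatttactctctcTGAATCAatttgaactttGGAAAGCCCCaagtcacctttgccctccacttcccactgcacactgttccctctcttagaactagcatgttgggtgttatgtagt

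The motifs searched were TATAAA on the gene's own strand and, on both strands, TGANTCA (AP-1), TTGCNNAA (C/EBP), GAGGAA (the core of PU.1 sites) and the NF-kB consensus by its name, and no match overlapped another. TATAAA began 31 bases before the start in Ccl12, 32 bases before it in Ccl8 and 92 bases before it in Ccl9, and 8.32% of all 32851 windows held it. GAGGAA lay 130 bases before the start of Ccl12, 240 bases before that of Ccl8 and 33 bases before that of Ccl3, a motif present in 28.3% of all windows. In Ccl9 the AP-1 motif (7.81% of windows) began 53 bases, and the NF-kB consensus (8.46% of windows) 35 bases, before the start. The C/EBP motif (10.8% of windows) was in 0 of the 6 windows, and the Ccl6 window held 0 of the 5 motifs. These are letter matches in short windows and say nothing of binding.

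Over an alignment of the whole window, Ccl12 and Ccl8 shared 180 bases (60%), the highest of the 15 pairs, whose range was 51% to 60%. Ccl6 and Ccl9 shared 170 bases (56.7%) and the longest identical run of any pair, the 13 bases gccctccacttcc, which began 55 bases before the Ccl6 start and 14 bases before the Ccl9 start. The Ccr2 window, on chromosome 9, shared 51.3% to 55.3% with the ligand windows. Ccl12 with Ccl6 and Ccl8 with Ccl3 each shared 57%, slightly more than Ccl6 with Ccl9. Ccl12 and Ccl8 both carried TATAAA at nearly the same place. After 4 days of tamoxifen in MerCreMer mice Ccl12 was called higher, and Ccl8 was under log2 5 on every array. Whether the windows bear on these levels was not tested.

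After 4 days of tamoxifen in MerCreMer mice, transcripts of Ccl12, Ccl7, Ccl9 and Ccl6 rose over 4 days of control injections. The rise was 2.84-fold for Ccl9 and 2.67-fold for Ccl6, and at least 4.02-fold for Ccl12 and at least 2.66-fold for Ccl7, whose control levels were near background. Ccl2 and Ccl3 were also higher on all 3 arrays than on the control arrays. Each reached a log2 level of 5 on only 2 of the 3, and on no other array, so neither entered the main test. Ccr2 was high on 1 array alone, and Ccl8 and Ccl4 stayed near background. After 1 day of tamoxifen in MerCreMer mice, and after 4 days in wild-type mice, none of the tested ligands passed the test. Values are log2 expression levels made by RMA, and a log2 difference of 1 is a 2-fold difference. A gene was tested where its log2 level reached 5 on at least 3 arrays, levels under 5 being taken as near background. Where all control arrays were under 5, the fold is a lower bound, with those arrays set at 5, and the log2 difference is the measured one. The test was limma's moderated test in 1 model of all 21 arrays with sex as a covariate, and a gene was called at a p under 0.05 after Benjamini-Hochberg adjustment over the 11384 genes tested.

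Of the 9 genes, 4 passed the brightness filter: Ccl6, Ccl9, Ccl7 and Ccl12. Ccl6 and Ccl9 were at or over 5 on all 21 arrays. Ccl12 reached 5 on 3 arrays outside the MerCreMer 4 tamoxifen group and Ccl7 on 2, so Ccl7 was tested only because its level was high in that group. The other 5 genes did not pass: Ccl2 and Ccl3 reached 5 on 2 arrays each, Ccr2 on 1, and Ccl8 and Ccl4 on 0.

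**Figure D1:**
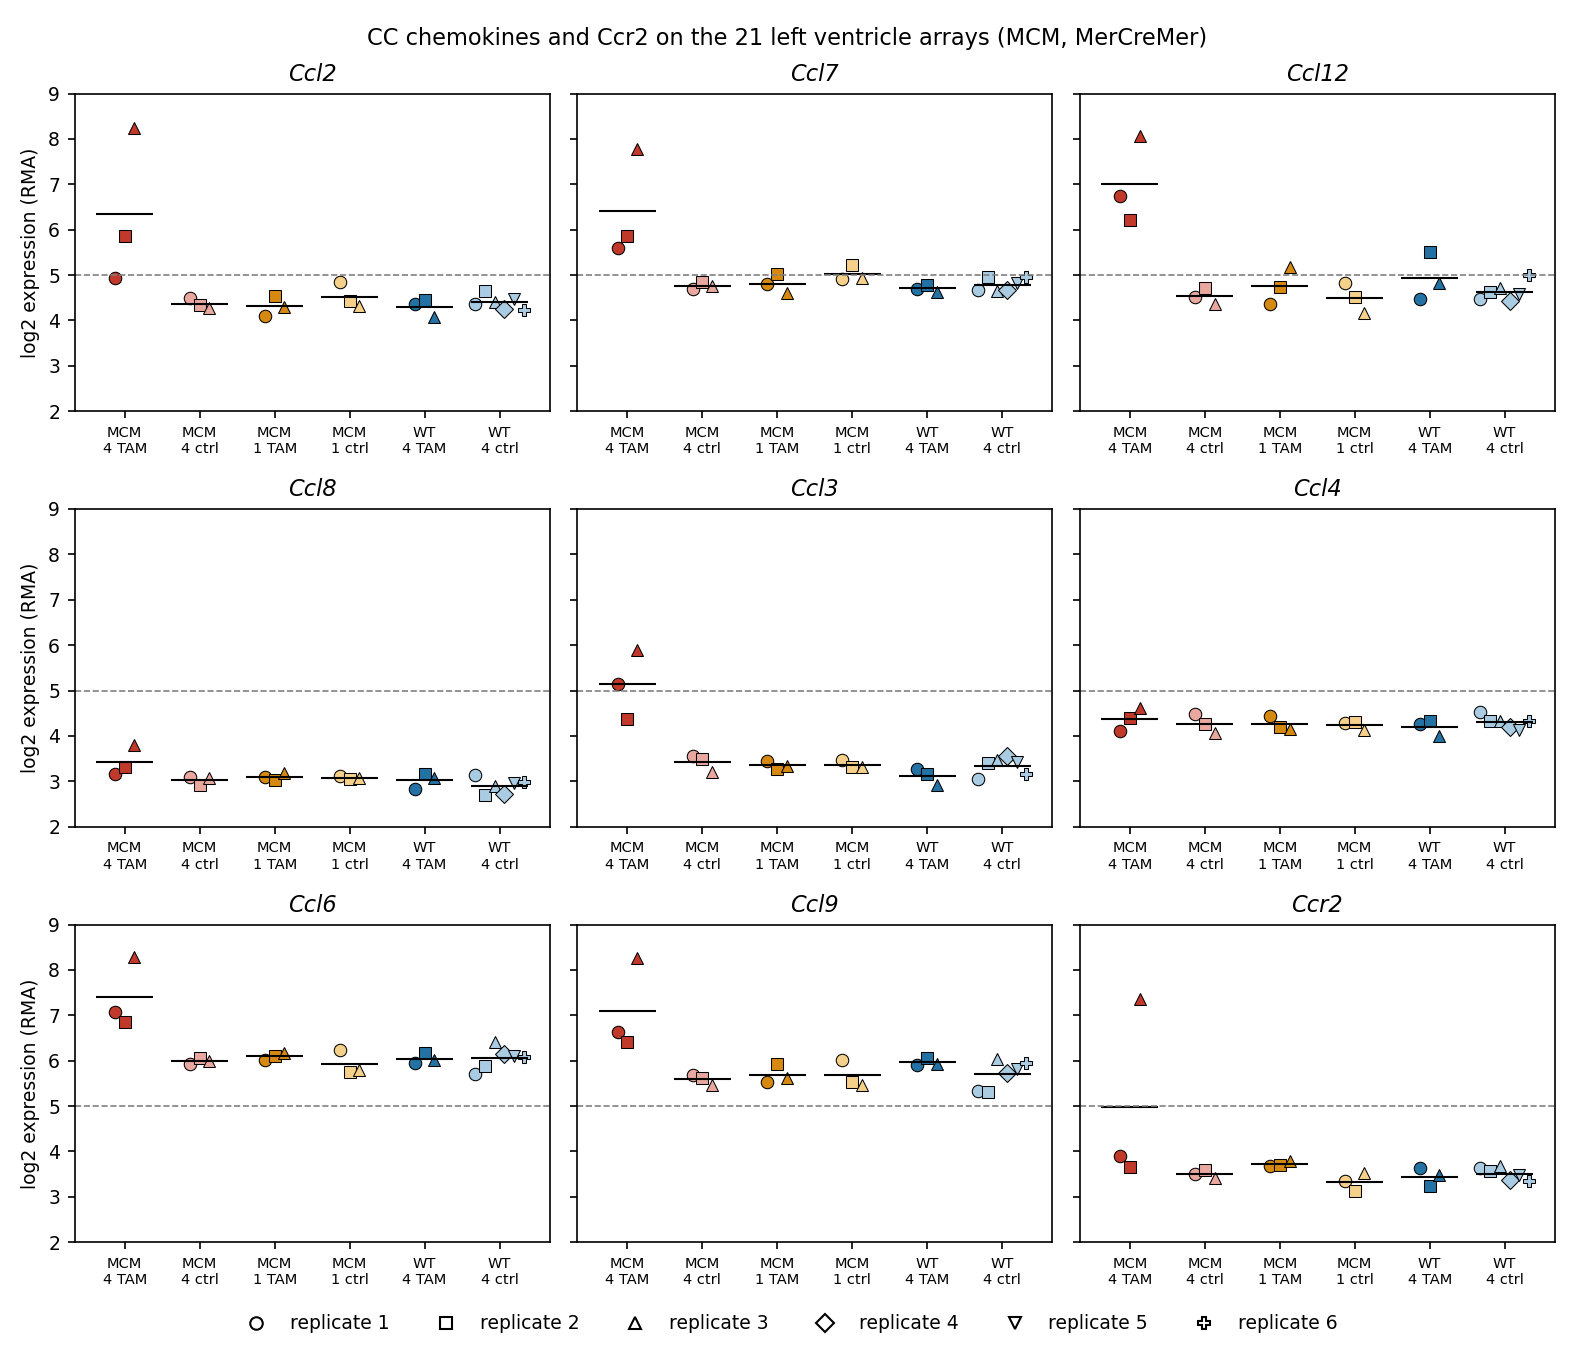
Log2 expression (RMA, vertical axes) of the 9 genes on each of the 21 arrays, by group, with MerCreMer abbreviated to MCM, tamoxifen to TAM and control injections to ctrl; marker shapes give the replicate number, black bars the group mean and the dashed line the log2 level of 5. The MerCreMer 4 tamoxifen arrays lie above all others for Ccl2, Ccl7, Ccl12, Ccl3, Ccl6 and Ccl9, and replicate 3 of that group is its highest array in every panel.

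Ccl12 (monocyte chemoattractant protein 5, known in mice) is a ligand of Ccr2. Its log2 levels were 6.74, 6.22 and 8.06 in MerCreMer mice after 4 days of tamoxifen, against 4.52, 4.73 and 4.36 after 4 days of control injections. After 1 day they were 4.36, 4.75 and 5.18 with tamoxifen and 4.83, 4.52 and 4.17 with the control injection. Wild-type mice had 4.48, 5.51 and 4.82 after 4 days of tamoxifen and 4.42, 4.61 and 5.01 (lowest, median and highest of 6) after control injections. The 3 MerCreMer 4 tamoxifen arrays were thus above the other 18, with no overlap. The difference within MerCreMer mice at 4 days was 2.47 (SE 0.338), or at least 4.02-fold, at a limma adjusted p of 7.52e-05.

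Ccl7 (monocyte chemoattractant protein 3) is a second strong ligand of Ccr2. MerCreMer mice had log2 levels of 5.60, 5.86 and 7.78 after 4 days of tamoxifen and 4.70, 4.84 and 4.75 after 4 days of control injections. After 1 day the levels were 4.80, 5.03 and 4.60 with tamoxifen and 4.92, 5.23 and 4.94 with the control injection. In wild-type mice they were 4.70, 4.79 and 4.63 after 4 days of tamoxifen, and 4.64, 4.76 and 4.96 (lowest, median and highest of 6) after control injections. Again no other array reached the lowest of the MerCreMer 4 tamoxifen arrays. The rise was 1.65 (SE 0.330), or at least 2.66-fold, at a limma adjusted p of 0.00197.

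Ccl2 (monocyte chemoattractant protein 1), the best known ligand of Ccr2, was the most uneven of the ligands, with an SD of 1.70 (n = 3) in the MerCreMer 4 tamoxifen group. Its log2 levels were 4.94, 5.87 and 8.25 in MerCreMer mice after 4 days of tamoxifen, against 4.49, 4.34 and 4.27 after control injections. The 1-day groups had 4.11, 4.55 and 4.31 with tamoxifen and 4.84, 4.42 and 4.32 with the control injection. Wild-type mice had 4.37, 4.45 and 4.07 after 4 days of tamoxifen and 4.23, 4.38 and 4.66 (lowest, median and highest of 6) after control injections. The 4-day MerCreMer groups did not overlap, but replicate 1 with tamoxifen, at 4.94, stood just above the highest of the other 18 arrays, at 4.84. In a fit of all 19937 genes with no brightness filter, the difference was 1.99 (SE 0.469), or at least 2.56-fold, at a limma adjusted p of 0.00979.

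Ccl8 (monocyte chemoattractant protein 2) stayed under 5 on all 21 arrays. Its log2 levels were 3.16, 3.31 and 3.80 in MerCreMer mice after 4 days of tamoxifen, against 3.09, 2.91 and 3.08 after control injections. On the other 15 arrays the levels were between 2.69 and 3.18. The difference of 0.39 (SE 0.137) had a limma adjusted p of 0.0723 in the fit without the filter, short of the threshold, and 0.0493 after a second quantile normalisation (0.42), just past it. Among the 4 monocyte chemoattractant protein genes, the groups of the 4-day comparison did not overlap for any, and only Ccl8 remained near background in all of them. The treated arrays were higher with no overlap for 11.5% of all genes. For Ccl8 the groups were parted by levels of 3.16 and 3.09, both near background.

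The macrophage inflammatory protein genes Ccl3 and Ccl4, next to each other on chromosome 11, did not have the same pattern. Ccl3 had log2 levels of 5.14, 4.38 and 5.90 in MerCreMer mice after 4 days of tamoxifen, against 3.55, 3.48 and 3.22 after control injections. The 1-day groups had 3.46, 3.27 and 3.33 with tamoxifen and 3.47, 3.31 and 3.32 with the control injection. Wild-type mice had 3.27, 3.17 and 2.92 after 4 days of tamoxifen and 3.05, 3.42 and 3.55 (lowest, median and highest of 6) after control injections. The lowest MerCreMer 4 tamoxifen array was above the highest of the other 18, at 3.55. Without the filter the difference was 1.72 (SE 0.235), or at least 1.10-fold, at a limma adjusted p of 0.000102. Ccl4 had 4.11, 4.39 and 4.62 after 4 days of tamoxifen in MerCreMer mice and 4.49, 4.25 and 4.06 after control injections. These groups overlapped, and the difference of 0.10 (SE 0.130; 95% interval -0.17 to 0.37) had a limma adjusted p of 0.700 without the filter. Ccl4 was the 1 gene of the 9 for which the 4-day MerCreMer groups overlapped. Of all genes, 11.5% were higher on the treated arrays with no overlap.

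Ccl6 and Ccl9, ligands of Ccr1 that rodents carry, were the only members at or over log2 5 in every group. Ccl6 had log2 levels of 7.08, 6.86 and 8.28 in MerCreMer mice after 4 days of tamoxifen, against 5.92, 6.05 and 5.99 after control injections. The 1-day groups had 6.01, 6.10 and 6.18 with tamoxifen and 6.23, 5.75 and 5.79 with the control injection. In wild-type mice the levels were 5.94, 6.17 and 6.01 after 4 days of tamoxifen and 5.70, 6.09 and 6.42 (lowest, median and highest of 6) after control injections. The rise of 1.42 (SE 0.249), or 2.67-fold, had a limma adjusted p of 0.000688, and the lowest MerCreMer 4 tamoxifen array was above the highest of the other 18.

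Ccl9 (macrophage inflammatory protein 1γ), like Ccl6, was highest on replicate 3 and lowest on replicate 2 of the MerCreMer 4 tamoxifen arrays. Its log2 levels were 6.63, 6.41 and 8.25 in MerCreMer mice after 4 days of tamoxifen, against 5.69, 5.63 and 5.46 after control injections. After 1 day they were 5.52, 5.92 and 5.61 with tamoxifen and 6.02, 5.54 and 5.47 with the control injection. Wild-type mice had 5.90, 6.07 and 5.94 after 4 days of tamoxifen and 5.32, 5.78 and 6.03 (lowest, median and highest of 6) after control injections. Ccl9 rose by 1.50 (SE 0.322), or 2.84-fold, at a limma adjusted p of 0.00315. The lowest tamoxifen-treated MerCreMer array at 4 days, 6.41, was above the highest of the other 18, 6.07.

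The receptor Ccr2 was near background on 20 of the 21 arrays. Its log2 levels were 3.90, 3.67 and 7.35 in MerCreMer mice after 4 days of tamoxifen, against 3.51, 3.59 and 3.41 after control injections. With 1 day of tamoxifen they were 3.68, 3.70 and 3.79, and with 1 control injection 3.36, 3.12 and 3.52. Wild-type mice had 3.63, 3.24 and 3.47 after 4 days of tamoxifen, and 3.35, 3.52 and 3.69 (lowest, median and highest of 6) after control injections. Replicate 3 of the MerCreMer 4 tamoxifen group was therefore the only array with a level above background. The mean difference of 1.47 (SE 0.559) had a limma adjusted p of 0.0989 without the filter, and it was 0.26 without replicate 3. It passed the threshold without replicate 1 (2.05, adjusted p 0.0245 by limma) or without replicate 2 (2.17, adjusted p 0.00800), where replicate 3 made up more of the mean, and Ccl8 did likewise (0.52, adjusted p 0.0226, and 0.46, adjusted p 0.0421).

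Together, 4 of the 4 tested ligands were called higher, where 13.9% of all tested genes were called higher and 23.3% were called in either direction. Since the filter let Ccl7 through by its high values alone, these 4 are not a sample of the 9. The 9 genes were chosen with earlier results of these data known, so the shares here are a description and not a test. Without the filter, 6 of the 9 were called higher, against 6.9% of all 19937 genes. That count was 7 after the second quantile normalisation, which added Ccl8, and 8 without replicate 1 or replicate 2 with tamoxifen. It was 0 with only the 6 arrays compared, where the limma adjusted p was 0.393 for Ccl2 and 0.192 for Ccl3. The groups did not overlap for 8 of the 9, all but Ccl4, against 11.5% of all genes with the treated arrays higher. The share of all genes with these treated arrays above every other array of the series was not counted. The median difference was 1.58 over the 4 tested ligands and 1.50 over the 9 genes, while it was 0.01 over all genes tested.

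These calls used a spread pooled over the 6 groups, and the MerCreMer 4 tamoxifen arrays varied more than the rest. With only the 6 arrays of the comparison in the fit, 0 of the 4 ligands were called (limma adjusted p of 0.252 for Ccl7, 0.120 for Ccl12, 0.194 for Ccl6 and 0.258 for Ccl9), and 18 of all genes. With each group weighted by its own variance, all 4 remained called. Among all tested genes, 1583 were called higher and 1071 lower, and a second quantile normalisation gave 1368 and 1313, with the same 4 ligands called.

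**Figure D2:**
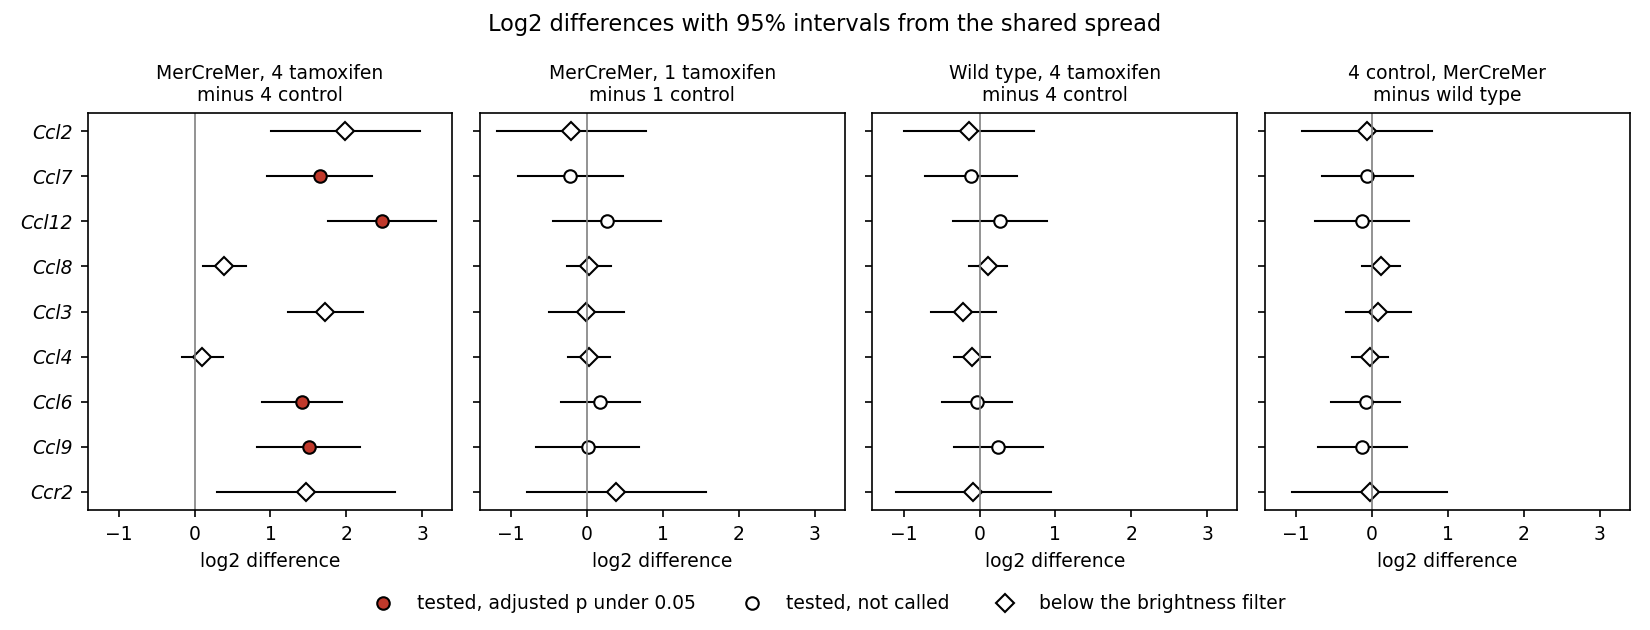
Log2 differences (horizontal axes) of the 9 genes in 4 comparisons with 95% intervals from the pooled spread; filled circles passed the test, open circles were tested and did not, and diamonds are genes below the brightness filter. Only the first panel, MerCreMer mice with 4 days of tamoxifen minus 4 days of control injections, holds filled circles: Ccl7, Ccl12, Ccl6 and Ccl9.

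The 3 MerCreMer 4 tamoxifen arrays differed in how far the chemokines had moved. Replicate 3, a female, was the highest of the 3 for 9 of the 9 genes, whereas it was the highest for 35% of all tested genes and for 66% of the genes called higher. Relative to the mean of the control-injected MerCreMer arrays, its log2 differences were 3.88 for Ccl2, 3.85 for Ccr2, 3.52 for Ccl12, 3.01 for Ccl7, 2.66 for Ccl9, 2.48 for Ccl3 and 2.29 for Ccl6. Since the controls were near background, this array was at least 9.49-fold above them for Ccl2 and at least 5.10-fold for Ccr2.

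The differences were smaller on the other two arrays. On replicate 1, a male, the differences were 2.21 for Ccl12, 1.73 for Ccl3, 1.09 for Ccl6, 1.03 for Ccl9, 0.84 for Ccl7, 0.58 for Ccl2 and 0.40 for Ccr2. On replicate 2, a female, they were 1.68 for Ccl12, 1.51 for Ccl2, 1.09 for Ccl7, 0.96 for Ccl3, 0.87 for Ccl6, 0.82 for Ccl9 and 0.16 for Ccr2. Ccl8 had 0.13 on replicate 1 and 0.28 on replicate 2, and Ccl4 had -0.16 and 0.12. Ccl2, Ccl7, Ccl8 and Ccl4 were thus higher on replicate 2 than on replicate 1, while Ccl12, Ccl3, Ccl6, Ccl9 and Ccr2 were higher on replicate 1. On both arrays Ccl8, Ccl4 and Ccr2 were near background. Without replicate 3 the differences were 1.04 for Ccl2, 0.98 for Ccl7, 1.96 for Ccl12, 1.32 for Ccl3, 0.98 for Ccl6 and 0.93 for Ccl9. The 4 tested ligands were still called without it, and Ccl2 and Ccl3 had limma adjusted p of 0.00464 and 5.29e-05 without the filter.

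Monocyte and macrophage markers moved on the same arrays. Of 20 tested markers, 18 rose and 0 fell after 4 days of tamoxifen in MerCreMer mice, with a median difference of 0.98, and without replicate 3 the count was 14 and the median 0.54. By array the median difference was 0.86 on replicate 1, 0.30 on replicate 2 and 1.82 on replicate 3, the order seen for Ccl12, Ccl3, Ccl6, Ccl9 and Ccr2 but not for Ccl2, Ccl7, Ccl8 and Ccl4. Each place in this order rests on a single array, and Ccr2, Ccl8 and Ccl4 were near background on replicates 1 and 2. Examples of the markers that rose are Cd68, a lysosomal protein of macrophages (1.62, SE 0.265, limma adjusted p 0.000386), Mrc1, the mannose receptor (1.22, SE 0.199, adjusted p 0.000384), and C1qc, a chain of complement C1q (1.06, SE 0.176, adjusted p 0.000416). The mean log2 level of the 20 markers was 6.61 to 8.03 in MerCreMer mice after 4 days of tamoxifen and 6.22 to 6.29 after control injections. It was 6.42 to 6.53 after 1 day of tamoxifen, 6.19 to 6.38 after 1 control injection, 6.31 to 6.53 in tamoxifen-treated wild-type mice and 6.21 to 6.46 in wild-type controls.

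Of the 26 monocyte and macrophage markers with a probe set, Cd209f, Timd4, Plac8 and Arg1 were under 5 on all arrays. Among markers of other leukocytes, 11 of 12 neutrophil genes, 11 of 12 T and NK cell genes, 6 of 6 B cell genes, 7 of 9 dendritic cell genes and 8 of 9 mast cell and eosinophil genes were under 5 on every array. The neutrophil gene that was not, Lcn2, is made by many tissues under stress and rose by 2.40 (SE 0.504, limma adjusted p 0.00279). Cardiomyocyte markers had a lower mean log2 level in MerCreMer mice after 4 days of tamoxifen, 11.23 to 11.68, than after control injections, 11.93 to 11.94, and 0 of 16 rose and 5 fell. Of 12 endothelial markers 0 rose and 3 fell, with a median difference of -0.26 (0.13 on replicate 1, -0.31 on replicate 2 and -0.56 on replicate 3). The count that fell was 8 without replicate 1, 3 without replicate 2 and 1 without replicate 3. Of 4 tested atrial markers 0 rose and 1 fell, with a median of -1.12. Their mean log2 level was 6.97 to 7.81 after 4 days of tamoxifen in MerCreMer mice and 8.55 to 8.87 after control injections, and in the wild-type controls it was 6.40 to 8.06. Of 10 fibroblast markers 0 were called, although 4 were called higher without replicate 1 and 4 without replicate 2. Their mean log2 level was 8.34 to 9.29 after 4 days of tamoxifen in MerCreMer mice and 8.20 to 8.34 after control injections. The part of these markers in the chemokine differences was not tested. In RNA from whole ventricle, more or fewer cells of a type and more or less RNA per cell cannot be told apart.

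**Figure D3:**
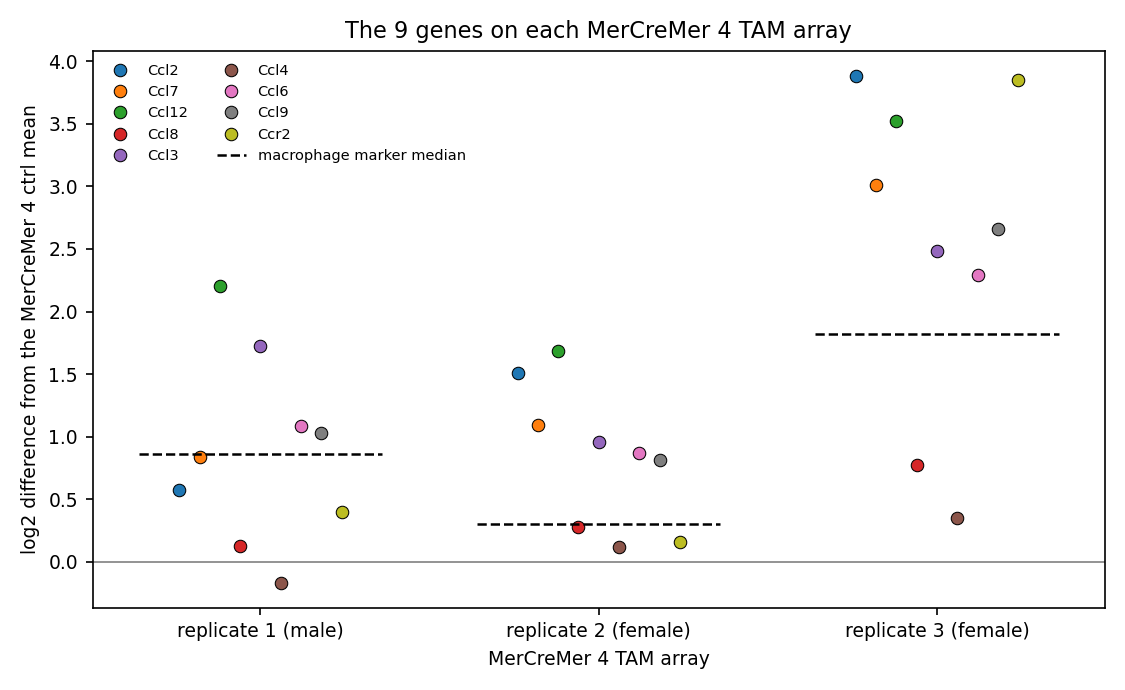
Log2 difference from the mean of the 3 control-injected MerCreMer arrays (vertical axis) for the 9 genes on each MerCreMer 4 tamoxifen array (horizontal axis); dashed lines are the median difference of the 20 tested monocyte and macrophage markers. Replicate 3 is highest for all 9 genes, and Ccl2, Ccl7, Ccl8 and Ccl4 are higher on replicate 2 than on replicate 1, unlike the marker median of 0.86 on replicate 1 and 0.30 on replicate 2. On those 2 arrays Ccl8, Ccl4 and Ccr2 are near background.

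Along chromosome 11 the genes that rose and those that did not lie side by side. In the group of genes for monocyte chemoattractant proteins and eotaxin, the order is Ccl2, Ccl7, Ccl11, Ccl12, Ccl8 and Ccl1. Between Ccl7 and Ccl12, Ccl11 (eotaxin, which attracts eosinophils) had log2 levels of 4.72 to 4.91 in MerCreMer mice after 4 days of tamoxifen and 4.78 to 5.16 after control injections. Its difference was -0.12 (SE 0.138, limma adjusted p 0.571), and Ccl1, beyond Ccl8, had -0.10 without the filter. In the second group the order is Ccl5, Ccl9, Ccl6, Ccl3 and Ccl4. Ccl5 (RANTES, a T cell chemokine) had 5.10 to 5.61 after 4 days of tamoxifen in MerCreMer mice and 5.35 to 5.41 after control injections, a difference of -0.02 (SE 0.0949, adjusted p 0.917). The run Ccl9, Ccl6 and Ccl3 was thus raised between Ccl5 and Ccl4, whose groups overlapped.

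**Figure D4:**
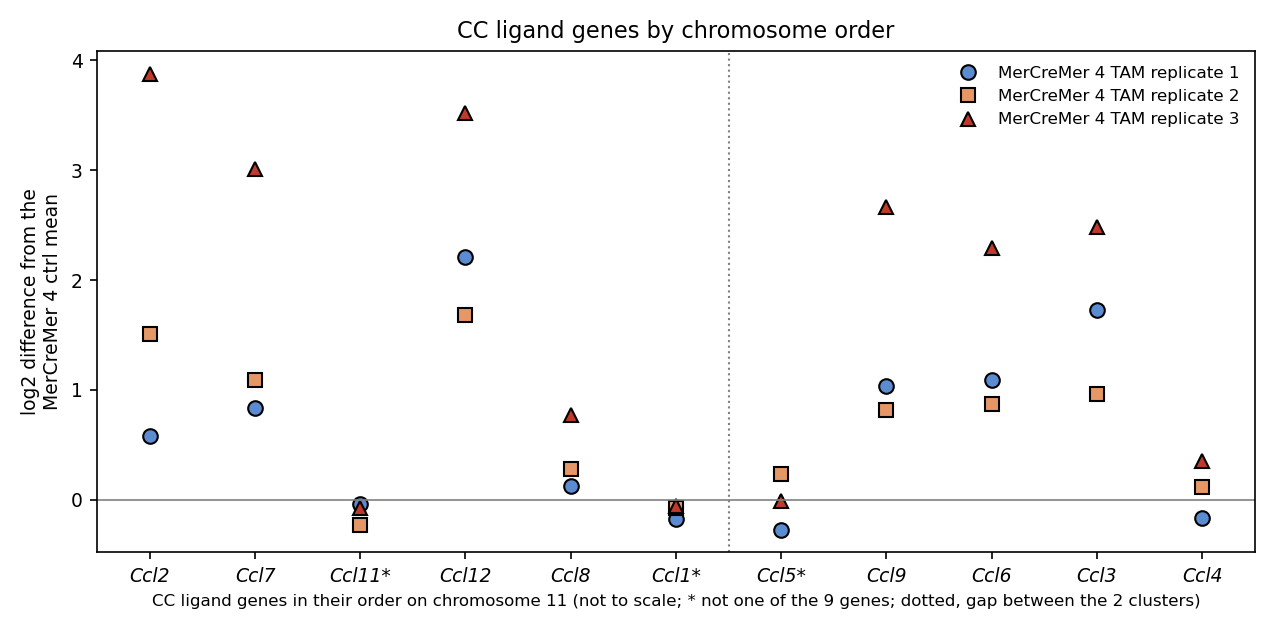
Log2 difference of each MerCreMer 4 tamoxifen array from the mean of the 3 control-injected MerCreMer arrays (vertical axis) for 11 CC ligand genes in their order along chromosome 11 (horizontal axis, not to scale; asterisks mark genes outside the 9). Ccl11, Ccl1, Ccl5 and Ccl4 lie near 0 on most arrays, with Ccl4 between -0.16 and 0.35, whereas Ccl2, Ccl7, Ccl12, Ccl9, Ccl6 and Ccl3 are above 2 on replicate 3.

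No other CC ligand passed the test. Of 15 further CC ligand genes, 11 had a probe set, 7 were under 5 on all arrays and 3 were tested, with a median difference of -0.02. The third tested, beside Ccl5 and Ccl11, was Ccl19 (a ligand of Ccr7 made in lymphoid tissue), at 0.43 (SE 0.228, limma adjusted p 0.183). Among 19 CC and atypical chemokine receptors other than Ccr2, 14 had a probe set, 10 were under 5 on all arrays and 4 were tested. Here 0 rose and 2 fell, with a median of -0.30.

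The receptors that fell were Ackr3, an atypical receptor that takes up Cxcl12, and Ccrl2, an atypical receptor that binds chemerin. Ackr3 had log2 levels of 5.83, 5.71 and 5.05 in MerCreMer mice after 4 days of tamoxifen, against 6.02 to 6.14 after control injections (-0.56, SE 0.147, limma adjusted p 0.0117). Ccrl2 had 6.36, 6.72 and 5.82, against 6.61 to 7.0 (-0.52, SE 0.169, adjusted p 0.0334). Replicate 3, the highest array for the 9 genes, was the lowest for both, and without it 0 of the 4 tested receptors were called. Ackr2 (0.14, SE 0.133, adjusted p 0.481), which clears inflammatory CC chemokines, and Ackr4 (-0.07, SE 0.138, adjusted p 0.731), which clears Ccl19, were tested and not called.

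On chromosome 9, Ccr2 lies near Ccr3, Ccr1l1 and Ccr1. Ccr1, a receptor of Ccl6, Ccl9 and Ccl3, is described here after its values were seen. Its log2 levels were 3.24, 2.48 and 4.58 in MerCreMer mice after 4 days of tamoxifen and 2.49 to 2.76 after control injections. All were under 5, the groups overlapped, and the difference of 0.85 (SE 0.317) had a limma adjusted p of 0.0921 without the filter.

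In the other chemokine families, 25 genes had a probe set and 10 were tested. Of these 3 rose and 0 fell, with a median of 0.15. Pf4 (platelet factor 4, also made by macrophages) rose by 1.20 (SE 0.204, limma adjusted p 0.000507), Cx3cr1 (the fractalkine receptor of monocytes and resident macrophages) by 0.84 (SE 0.243, adjusted p 0.0201) and Cx3cl1 (fractalkine) by 0.48 (SE 0.149, adjusted p 0.0278). Without replicate 3 the count was 1. On Pf4, replicate 1 (6.79) and replicate 3 (7.13) were well above the control range of 5.22 to 5.50 and replicate 2 (5.87) was nearer to it.

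Of 17 cytokines and growth factors known to act on chemokine expression, 12 were under 5 on all arrays and 3 were tested. Csf1, the growth factor of macrophages, rose by 0.52 (SE 0.109, limma adjusted p 0.00285), and the other two, Tgfb1 and Il33, did not pass (0.31, adjusted p 0.0724, and 0.35, adjusted p 0.217). Of 19 tested genes of the NF-kB pathway, which drives transcription of several chemokines, 2 rose and 0 fell, with a median of 0.17. In this comparison 13.9% of all tested genes were called higher, so the count was no higher than that share gives. Against tamoxifen-treated wild-type mice, 8 of the 19 were called higher and 0 lower, where 17.7% of tested genes were called higher. The 2 that rose over control injections were Myd88, an adaptor of Toll-like receptors (0.63, SE 0.162, adjusted p 0.0100), and Bcl3, a nuclear partner of NF-kB (0.65, SE 0.221, adjusted p 0.0416). The NF-kB count of genes that rose was 1 without replicate 3, 3 without replicate 1 and 7 without replicate 2.

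Of 13 tested genes of chemokine receptor signalling, 7 rose and 1 fell, with a median of 0.38. The kinase gene Ptk2b rose by 1.25 (SE 0.163, limma adjusted p 4.63e-05), and the genes of the inhibitory G proteins Gnai2 and Gnai3 rose by 0.38 (SE 0.0879, adjusted p 0.00578) and 0.62 (SE 0.149, adjusted p 0.00670). The gene that fell was Rgs2, a brake on G protein signalling (-1.05, SE 0.262, adjusted p 0.00848). Without replicate 3, 4 rose and 1 fell.

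After 1 day of tamoxifen in MerCreMer mice, 0 of the 4 tested ligands were called, and neither were nearly all other genes: limma called 0.00878% of those tested at the adjusted threshold, and 3.34% had an unadjusted p under 0.05. The log2 differences from 1 control injection were 0.26 for Ccl12 (95% interval -0.45 to 0.97), 0.18 for Ccl6 (-0.35 to 0.70), 0.01 for Ccl9 (-0.67 to 0.68) and -0.22 for Ccl7 (-0.92 to 0.47), and 0 of them had an unadjusted p under 0.05. The groups overlapped for every ligand. For Ccr2 they did not (difference 0.39, SE 0.559), where the treated arrays were higher for 5.02% of all genes, and all 6 levels were under 4. The intervals use the spread pooled over all groups, to which the MerCreMer 4 tamoxifen arrays add most: for Ccl6 the SD was 0.764 there, against 0.0809 and 0.265 in the 1-day groups (n = 3 each). With only the arrays of the 1-day groups in the fit, 0 of the 4 were called as well.

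In wild-type mice, 4 days of tamoxifen called 0 of the 4 ligands and 0% of all tested genes, with 2.59% at an unadjusted limma p under 0.05. The log2 differences from control injections were 0.27 for Ccl12 (95% interval -0.35 to 0.89), 0.25 for Ccl9 (-0.34 to 0.84), -0.03 for Ccl6 (-0.49 to 0.42) and -0.12 for Ccl7 (-0.72 to 0.49), and 0 of them had an unadjusted p under 0.05. The groups overlapped for all 9 genes, and they did not for 3.42% of all tested genes. For Ccl12, replicate 2 with tamoxifen, at 5.51, was the highest array outside the MerCreMer 4 tamoxifen group.

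The transgene without tamoxifen was assessed by control-injected MerCreMer against control-injected wild-type mice, a comparison in which limma called 0 of the 4 ligands and 0.676% of all tested genes. All 9 differences lay between -0.13 and 0.12, all 9 intervals held 0 and all 9 pairs of groups overlapped. The groups did not overlap for 12.5% of tested genes. These intervals use the pooled spread. For Ccr2 the interval was -1.05 to 0.99, while the SD was 0.0909 (n = 3) in these MerCreMer mice and 0.141 (n = 6) in wild-type mice. Among mice that all received 4 days of tamoxifen, the 4 ligands were higher in MerCreMer than in wild-type mice, where 17.7% of tested genes were called higher. Ccl7 was tested only because its level was high in these MerCreMer mice, so the 4 are not a free count. The differences were 2.07 for Ccl12 (SE 0.338, limma adjusted p 0.000291), 1.71 for Ccl7 (SE 0.330, adjusted p 0.00123), 1.36 for Ccl6 (SE 0.249, adjusted p 0.000770) and 1.13 for Ccl9 (SE 0.322, adjusted p 0.0158). Ccl9 was not called without replicate 3 of either tamoxifen-treated group, nor with array weights (limma adjusted p 0.116), with group variance weights (0.0823) or with female arrays (0.0555). All wild-type arrays belonged to the low set of arrays defined by 1 unnamed probe set, and with that set as a block Ccl9 had an adjusted p of 0.0488. With only the arrays of those groups in the fit, 0 of the 4 were called. This comparison shares its MerCreMer arrays with the one above, and the 2 are not independent. Without the filter, 6 of the 9 genes were called here, against 8.64% of all genes called higher.

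Whether the tamoxifen difference itself depended on genotype was asked with an interaction term. The difference at 4 days was larger in MerCreMer than in wild-type mice for 3 of the 4 ligands, where 4.45% of tested genes were called higher. The terms were 2.20 for Ccl12 (SE 0.448, limma adjusted p 0.00600), 1.76 for Ccl7 (SE 0.438, adjusted p 0.0193) and 1.45 for Ccl6 (SE 0.331, adjusted p 0.0121). For Ccl9 the term of 1.26 (SE 0.427) had an adjusted p of 0.0762. Between 4 days and 1 day in MerCreMer mice, the tamoxifen difference was larger at 4 days for the same 3 ligands, where 2.78% of tested genes were called higher. Here the terms were 2.21 for Ccl12 (SE 0.478, adjusted p 0.0107), 1.87 for Ccl7 (SE 0.467, adjusted p 0.0253), 1.24 for Ccl6 (SE 0.353, adjusted p 0.0457) and, not called, 1.50 for Ccl9 (SE 0.455, adjusted p 0.0600). Of the 4 ligands, Ccl7 was tested only because its level was high in the MerCreMer 4 tamoxifen group. Without the filter, limma called the genotype term for 4 of the 9 genes (Ccl7, Ccl12, Ccl3 and Ccl6), against 1.68% of all genes called higher. The injection-day term was called for 3 of the 9 (Ccl7, Ccl12 and Ccl3), against 0.943%.

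Both terms use the same MerCreMer 4-day arrays and are not independent of each other. Ccl3, tested only without the filter, passed both interactions, at 1.94 (SE 0.312, limma adjusted p 0.00142) against wild-type mice and 1.73 (SE 0.333, adjusted p 0.00756) against 1 day. With the replicate number as a block in place of sex, Ccl12 alone of the 4 tested ligands was called in either interaction, and with the female arrays alone 0 were called.

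For each tested ligand, the 3 genes whose log2 levels followed it most closely over the 21 arrays were found by Pearson's r, given as a description. They were Cfp (properdin, 0.966), C5ar1 (the receptor of complement C5a, 0.959) and Txnrd1 (thioredoxin reductase, 0.959) for Ccl12. Those for Ccl6 were Txnrd1 (0.968), Rtn4 (0.966) and Prr13 (0.963), and those for Ccl9 were Cfl1 (cofilin, 0.968), Fcer1g (a signalling chain of Fc receptors, 0.966) and Cfp (0.961). For Ccl7 they were B4galt5 (0.972), Plaur (the urokinase receptor, 0.972) and Slc7a5 (an amino acid transporter, 0.967).

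These r values rest mainly on the 3 MerCreMer 4 tamoxifen arrays. Over the other 18 arrays they ranged from 0.514 to 0.812 for the genes like Ccl12, Ccl6 and Ccl9, with Cfp the closest to Ccl9. For Ccl7 they were 0.765 with Plaur, 0.338 with Slc7a5 and 0.233 with B4galt5. Arrays of the same group share their treatment, and no p is given.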

How the data were processed

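Total RNA from 21 left ventricle samples was hybridised to Affymetrix gene arrays, 1 sample per array. Per the submitters' processing notes, the authors used RMA to make the log2 values they deposited; its version is not given in the sources used here. RMA corrects each probe's background, quantile normalises arrays and summarises probes, so a shift shared by most genes would be removed. The deposited file held 34760 probe sets, of which 21640 were annotated to 1 gene, 1321 to several and 11799 to none. Each of 19937 genes was represented by its brightest single-gene probe set (mean of 21 arrays). Array medians lay between 4.57 and 4.72, 0 pairs of arrays were identical, and the number of arrays limits the precision.

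Group means and sex were fitted to all 21 arrays with limma 3.58.1 in R 4.3.3 (lmFit and eBayes, 14 residual and 3.98 prior degrees of freedom), on 11384 genes that reached log2 5 on at least 3 arrays, for 7 comparisons with Benjamini-Hochberg adjustment over those genes. Genes below the filter were taken from the same fit of all genes. The fit was tested on simulated data in which all groups had the same spread. The MerCreMer 4 tamoxifen arrays varied more than the rest, a setting the simulation did not cover. The 9 genes, the gene lists and the alternatives were chosen with earlier results of these data known. Named genes were the 9, every tested gene of the CC ligand and receptor lists, and up to 3 called genes of each other list by adjusted p. Probe sets of different genes were not compared in level. Promoter windows and gene order came from RefSeq tables of GRCm38.p6. No source used here names array batches. The arrays fell into a high and a low set by 1 bright unnamed probe set, with 2 high and 1 low array in each MerCreMer group and all wild-type arrays low. Alternatives were other covariates, arrays, weights, filters, probe set rules and a second quantile normalisation, and each array left out in turn.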

Additional observations from a re-analysis of the deposited data

Results flagged for a closer look

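The tamoxifen difference at 4 days was larger in MerCreMer than in wild-type mice, by limma's test of the difference itself, for Ccl12 (2.20), Ccl7 (1.76) and Ccl6 (1.45) and, in the fit without the brightness filter, for Ccl3 (1.94). All 3 tamoxifen-treated MerCreMer arrays were above every tamoxifen-treated wild-type array for each of these genes, as they were for 13.6% of all 19937 genes. The same arrays enter the interaction, so this is not independent of it. Between 4 days and 1 day of injections in MerCreMer mice, the same test called Ccl12 (2.21), Ccl7 (1.87) and Ccl6 (1.24) and, without the filter, Ccl3 (1.73). For Ccl6 the call was lost without the filter, at a limma adjusted p of 0.0689. In the only group with more than 3 arrays, the 6 wild-type control arrays, none of the 9 genes had a highest or lowest array that passed Dixon's criterion of 0.625.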

How the results depend on the processing

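In MerCreMer mice at 4 days, Ccl7, Ccl12, Ccl6 and Ccl9 kept their direction and their calls under every alternative tried except 3: with only the 6 arrays compared, 0 of the 4 were called, in the high array set (chosen after seeing the data) Ccl7 was not (2.39, limma adjusted p 0.0541), and the stricter filter of log2 6 left Ccl7 out. Leaving out any of the 21 arrays gave 4 called, among the 1184 of 2654 genes called whichever of the 6 arrays was omitted. The lowest difference came without MerCreMer 4 tamoxifen replicate 3: 0.93 for Ccl9, 0.98 for Ccl6 and Ccl7, 1.96 for Ccl12. All genes called numbered 2654, with 18 when only the arrays compared were used, 637 with group variance weights, 1490 with array weights, 1502 with female arrays (710 higher, 792 lower) and 655 in the high array set. Against tamoxifen-treated wild-type mice, 4 ligands were called, 0 with only the arrays compared, and 3 to 4 when each array was left out. The interaction with genotype called 3, but 1 with the replicate block, 0 with female arrays and 2 to 4 with an array left out. The interaction with injection days called 3, but 1 with the replicate block, and 0 with only the arrays compared, with female arrays or in the high array set. It called 1 to 4 with an array left out, and 1, Ccl12, without MerCreMer 4 control replicate 3, 1 tamoxifen replicate 3, 1 control replicate 1 or 1 control replicate 2. The causes were not tested. The replicate block changed 0 of the 4 calls at 4 days and left 1888 genes called. The replicate numbers of those groups share only a number: their deviations correlated at 0.112, -0.0366 and 0.0543, and replicate 1 is the male. No called difference of the 4 tested ligands changed sign when an array was left out. Some differences that were not called in the main fit did change sign. The Ccl4 difference at 4 days in MerCreMer mice went from 0.10 to -0.05 without MerCreMer 4 tamoxifen replicate 3. The Ccr2 interaction with injection days was 1.08 with all arrays and -0.13 at its lowest with an array left out. Signal near background limits Ccl2, Ccl3, Ccl4, Ccl8 and Ccr2, and the control levels of Ccl7 and Ccl12.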

Other observations

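Several immune genes outside the CC family were bright on 1 array, MerCreMer 4 tamoxifen replicate 3, and are named after their values were seen. Cxcr6, a chemokine receptor of T and NK cells, had log2 levels of 2.97, 3.14 and 7.08 in MerCreMer mice after 4 days of tamoxifen, against 2.69 to 3.14 after control injections. Cxcl10, an interferon-induced chemokine, had 4.42, 4.19 and 6.86, against 4.03 to 4.17. Il1b had 3.66, 4.03 and 5.37, against 3.50 to 3.94, and Lif had 3.50, 3.56 and 5.15, against 3.41 to 3.48. Each was under 5 on the other 20 arrays, as Ccr2 was. In the fit without the brightness filter the limma adjusted p was 0.123 for Cxcr6, 0.138 for Il1b and 0.133 for Lif, and Cxcl10 did not pass the threshold of 0.05 either.

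Aldh1a2, which makes retinoic acid and marks the mesothelium and epicardium, was also highest on that array but differed on all 3. It had log2 levels of 6.11, 6.91 and 9.82 after 4 days of tamoxifen in MerCreMer mice and 4.57 to 5.59 after control injections, a rise of 2.42 (SE 0.511, limma adjusted p 0.00292). Of the 4 tested genes of that marker list it was the only 1 called.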
